A study of Mus musculus with 26 samples.

Results

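The genes described here are 34 mouse genes of 2 linked programmes, 19 of glycolysis and lactate transport and 15 of the hypoxia response, chosen by symbol from a named list drawn up with earlier results of these data known. All 34 were found once in each of the series' 2 tables of RNA sequencing counts, among 21761 genes a table, of which 21669 carry a symbol. The study, titled as one on vitamin C and TET dioxygenases in regulatory T (Treg) cells, measured bulk RNA of mouse CD4 T cells in 26 libraries of 10 groups. The cells were taken from lymph nodes and spleen, all of C57BL/6 mice carrying a Foxp3-eGFP reporter, in which Treg cells fluoresce because they express the Treg lineage factor Foxp3. Naive cells (2 libraries) were sorted as CD4+eGFP-CD25-CD62LhiCD44lo cells from mice of 5 to 6 weeks. The cultures were grown from naive CD4 T cells, as Th0 cells with antibodies to CD3 and CD28 (2 libraries) or as induced Treg (iTreg) cells with TGFβ alone, TGFβ and vitamin C (VitC), TGFβ and retinoic acid (RA), or TGFβ with both (2 libraries each), from mice of the same age; the labels do not say that these cultures were sorted for Foxp3. Treg cells taken straight from 3-week-old mice were sorted as CD4+eGFP+ cells from Tet2fl/fl Tet3fl/fl Foxp3-eGFP mice without Cre (control Treg, 4 libraries) or with CD4-Cre (labelled Tet2/3-deficient, 4 libraries). CD4-Cre acts in the whole T cell lineage, so the floxed genes are targeted in conventional T cells of those mice too. A separate table holds Foxp3+ iTreg cells sorted on day 6 of culture with TGFβ (3 libraries) and Foxp3- cells sorted on day 6 after TGFβ iTreg cells were restimulated with antibodies to CD3 and CD28 (3 libraries), both from mice of 12 to 14 weeks. The labels do not say whether replicates are separate animals or cultures, so the p-values below measure the spread between these libraries, which may be technical.

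Glycolysis breaks glucose down to pyruvate in a fixed chain of enzymes, and lactate dehydrogenase then turns pyruvate into lactate, which leaves the cell through monocarboxylate transporters. T cells raise this pathway when their antigen receptor and CD28 are engaged, and Treg cells are generally held to depend on it less than effector T cells. Many of the enzymes are also targets of hypoxia-inducible factor (HIF), a dimer whose alpha subunit, encoded by Hif1a, is hydroxylated and degraded when oxygen, iron and 2-oxoglutarate are plentiful. The prolyl hydroxylases that mark HIF and the TET enzymes that oxidize methylated cytosine belong to the same family of dioxygenases, and vitamin C keeps the iron of such enzymes reduced.

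Promoter sequences of 7 members are shown with matches to the short core motif that HIF, once stable, binds. The 7 are examples and do not stand for all members, and whether HIF acted on any of them was not tested. The sequences are RefSeq's 250 bases before the annotated start on GRCm38.p6, read 5′ to 3′ on the gene's strand, and capitals mark every ACGTG or GCGTG on either strand. CACGTG, the E-box bound by Myc and related factors, reads as ACGTG on both strands and is counted once on each. A match is a description of these letters and not a binding site.
Hk2 (chr6:82774455-82774704, minus strand): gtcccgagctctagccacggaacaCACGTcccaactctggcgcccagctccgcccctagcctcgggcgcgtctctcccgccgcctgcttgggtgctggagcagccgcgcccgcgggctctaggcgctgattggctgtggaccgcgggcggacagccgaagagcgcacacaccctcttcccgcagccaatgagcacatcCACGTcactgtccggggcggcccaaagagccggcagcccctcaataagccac
Tpi1 (chr6:124814159-124814408, minus strand): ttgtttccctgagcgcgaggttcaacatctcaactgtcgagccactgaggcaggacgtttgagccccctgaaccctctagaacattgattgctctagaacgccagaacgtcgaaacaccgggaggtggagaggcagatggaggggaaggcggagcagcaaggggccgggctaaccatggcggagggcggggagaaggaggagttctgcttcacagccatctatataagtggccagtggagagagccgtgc
Pgk1 (chrX:106186850-106187099, plus strand): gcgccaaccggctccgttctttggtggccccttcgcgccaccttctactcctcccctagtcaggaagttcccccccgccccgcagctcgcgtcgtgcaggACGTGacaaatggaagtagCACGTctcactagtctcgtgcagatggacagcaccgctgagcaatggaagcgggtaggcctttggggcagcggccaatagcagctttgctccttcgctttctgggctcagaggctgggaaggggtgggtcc
Ldha (chr7:46845554-46845803, plus strand): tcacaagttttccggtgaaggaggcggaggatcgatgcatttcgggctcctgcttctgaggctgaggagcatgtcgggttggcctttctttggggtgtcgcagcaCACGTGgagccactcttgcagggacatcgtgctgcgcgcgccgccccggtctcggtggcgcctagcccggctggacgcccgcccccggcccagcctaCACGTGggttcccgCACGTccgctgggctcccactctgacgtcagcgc
Slc16a3 (chr11:120948817-120949066, plus strand): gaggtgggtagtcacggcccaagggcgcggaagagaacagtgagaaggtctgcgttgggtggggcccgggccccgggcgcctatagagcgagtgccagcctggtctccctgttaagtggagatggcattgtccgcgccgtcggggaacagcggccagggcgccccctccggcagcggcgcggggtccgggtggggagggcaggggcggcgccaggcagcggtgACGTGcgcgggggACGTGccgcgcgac
Bnip3 (chr7:138909507-138909756, minus strand): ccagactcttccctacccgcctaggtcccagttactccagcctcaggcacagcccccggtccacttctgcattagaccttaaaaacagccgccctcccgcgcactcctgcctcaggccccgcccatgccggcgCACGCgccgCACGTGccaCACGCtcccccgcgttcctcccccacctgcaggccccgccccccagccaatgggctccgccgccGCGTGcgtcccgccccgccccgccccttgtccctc
Ankrd37 (chr8:45999851-46000100, minus strand): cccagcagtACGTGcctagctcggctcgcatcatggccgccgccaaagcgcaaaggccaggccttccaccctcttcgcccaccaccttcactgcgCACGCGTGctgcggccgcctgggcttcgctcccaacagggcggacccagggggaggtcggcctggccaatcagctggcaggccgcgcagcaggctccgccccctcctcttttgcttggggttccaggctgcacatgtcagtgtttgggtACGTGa
Ldha and Bnip3 held 5 matches each, Ankrd37 held 4, and Hk2, Pgk1 and Slc16a3 held 2. Tpi1 held none in this window. For Ldha, which has 2 annotated starts, the window with more matches is shown, a choice made after the matches were seen. Promoter entries existed for 31 of the 34 members (Bnip3l, Ndrg1 and Nrn1 had none), with 51 windows in all, of which 40 (78.4%) held a match, against 38.6% of 32851 windows over all genes. By gene, 28 of 31 members (90.3%) held a match in any window, against 41.5% of 27025 genes, namely 17 of the 19 glycolysis members and 11 of the 12 hypoxia members with an entry. Of the windows, 49.0% held at least 2 matches, against 16.7% of all, and 7 held CACGTG, a motif in 6.02% of all windows. These shares are not a test. The members were chosen as glycolysis and hypoxia response genes, many of them known HIF targets, so more matches can follow from the choice. Some windows of a gene overlap and were counted separately. The background is all annotated genes, not those expressed here, and was not matched for windows per gene or base content.

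Libraries held between 9647669 and 17672302 counted reads, a depth at which Vldlr, Ier3, Vegfa and, outside the activated cultures, Ak4 had few reads. Levels below are read counts over a library's total (CPM), fold changes are log2 values with standard errors (SE) from edgeR, and a gene rose or fell only where the adjusted p was below 0.05. Over the T cell markers Cd3d, Cd3e, Cd3g and Cd4, the summed level was between 1736 and 2795 CPM in every library. Foxp3 was at 540 to 973 CPM in the iTreg cultures with TGFβ, 542 to 737 in the Treg cells taken from mice, 302 to 338 in day 6 iTreg cells and at most 26.3 elsewhere. Counts over whole genes include exons outside a deleted part, so they do not check the Tet2 and Tet3 deletion. Tet2 was at 9.96 to 15.7 CPM in control Treg libraries and 12.0 to 16.5 in those labelled Tet2/3-deficient, and Tet3 was at 126 to 172 and 96.3 to 114. Gapdh, Pgk1, Eno1, Pgam1 and 6 other members share over 10% of the 50-base stretches of their coding transcripts with other genes or pseudogenes, up to 68.0% for Pgk1, so the absolute levels of these 10 are uncertain. How the counting treated reads that map to several places is not given in the sources used here. In bulk RNA, fewer cells of a type and less RNA per cell cannot be told apart.

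By group mean, glycolysis transcripts made up the smallest share of counted reads in naive cells and the largest in day 6 iTreg cells, which are in the separate table, although the lowest single library was a control Treg one. Summed over its 19 members, glycolysis took 0.460% and 0.462% of reads in the naive libraries, 1.36% and 1.65% in Th0, 1.22% and 1.06% with TGFβ alone, 0.906% and 0.748% with vitamin C, 0.718% and 0.763% with retinoic acid and 0.624% and 0.601% with both. Every iTreg culture with a supplement was below both cultures with TGFβ alone. The Treg cells taken from mice lay close to naive cells, at 0.444% to 0.523% in control Treg libraries and 0.513% to 0.564% in those labelled Tet2/3-deficient, 2 ranges that overlap. These sums include Gapdh, which was several-fold lower in the Treg libraries, as described below. In the restimulation table the share was 3.14% to 3.258% in day 6 cells and 0.701% to 0.745% in the restimulated Foxp3- cells. Day 6 cells carried over 4 times the share of the restimulated cells, with no overlap. The 15 hypoxia members moved less as a sum, from 0.117% and 0.122% in naive cells to 0.163% and 0.232% in Th0, and from 0.313% to 0.330% in day 6 cells to 0.119% to 0.121% after restimulation. Among the 8 groups of the first table, Th0 had the highest mean for 23 of the 34 members and naive cells the lowest for 20. The shares of all genes highest or lowest in these groups were not counted.

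**Figure D1:**
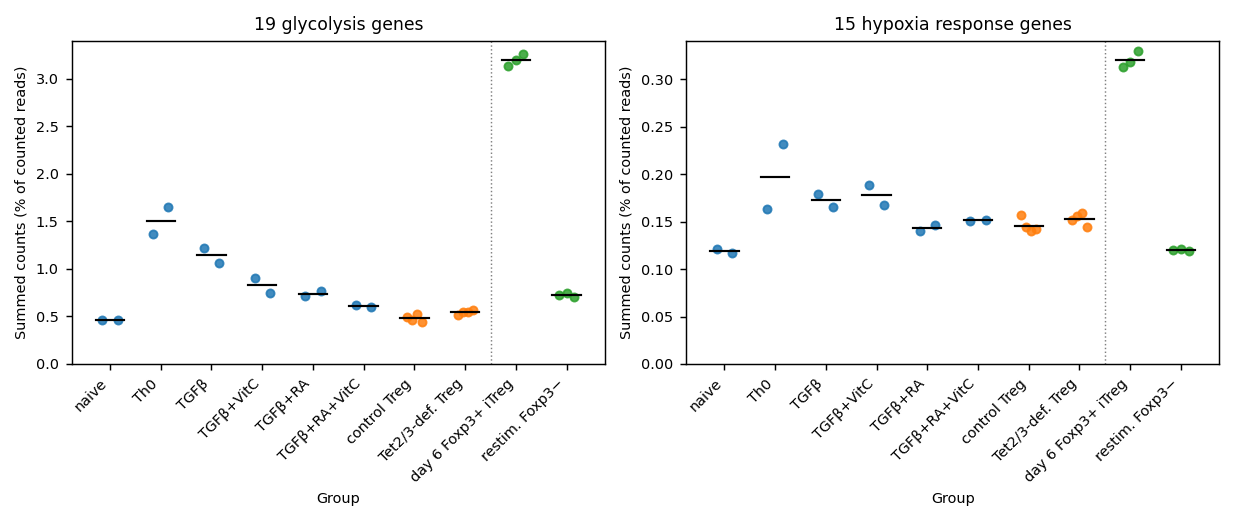
Summed counts of the 19 glycolysis members (one panel) and the 15 hypoxia response members (the other) as a percentage of counted reads, by group. Each point is a library and each line a group's mean, and the dotted line sets off the restimulation table, which was normalized separately. Glycolysis falls from 1.14% on average with TGFβ alone to 0.613% with both supplements, and from 3.20% in day 6 cells to 0.725% after restimulation.

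Compared per length of transcript, as mean FPKM (fragments scaled by exon length and library size), Gapdh, Ldha and Pkm were the 3 most abundant members in naive cells and in every culture of the first table. With TGFβ alone they stood at 1581, 868 and 739.5 FPKM, and in Th0 at 2028, 1088 and 901. In the Treg cells taken from mice the order differed, with Ldha (449 FPKM) and Pkm (330.5) ahead in control Treg libraries and Gapdh at 142. Gapdh, the enzyme that first harvests electrons from glucose and a common loading control, was at 154 to 229 CPM in these 8 libraries and at least 711 in all 18 others. Gapdh is also 1 of the members with the most shared sequence (58.4%, with 218 other genes, 213 of them pseudogenes), and whether that bears on the gap was not tested.

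**Figure D2:**
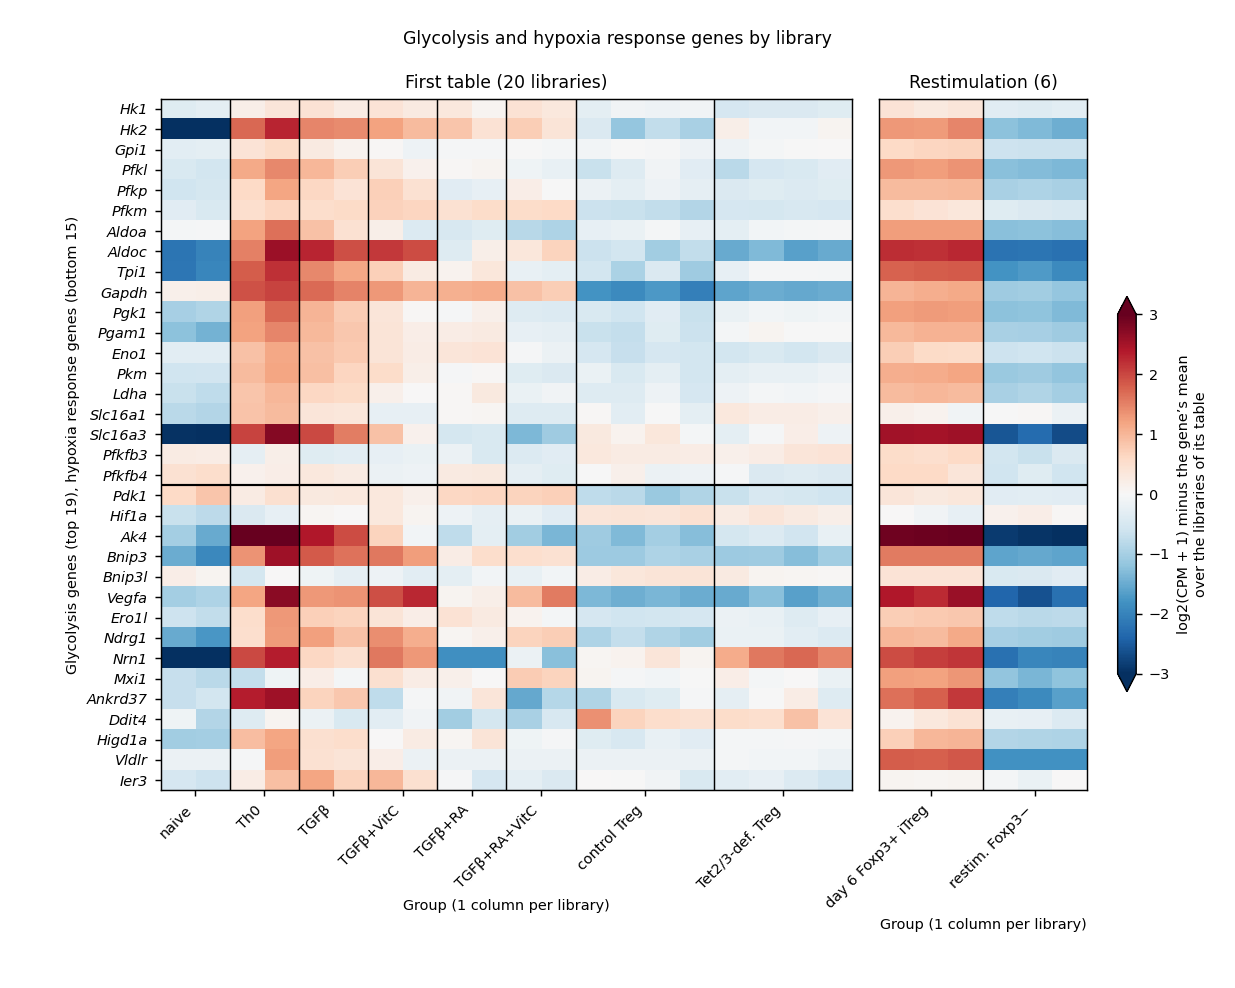
Level of each of the 34 members in each library, as log2(CPM + 1) minus the gene's mean over the libraries of its table, with colours capped at ±3. The 2 panels are the first table (20 libraries) and the restimulation table (6 libraries), and within each the 19 glycolysis members are above the 15 hypoxia members. Th0 and TGFβ libraries are mostly above the genes' means and naive libraries below them, and day 6 libraries are above the restimulated ones for nearly every member.

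Activation raised nearly the whole set. Between naive and Th0 cells, 27 of the 33 members tested rose and 4 fell, where 35.7% of the 11287 genes tested rose and 36.4% fell. The median log2 fold change of the members was 1.74 and that of all genes -0.01. Among the glycolysis members 17 of 19 rose, with a median of 1.62, and among the 14 hypoxia members tested 10 rose and 2 fell, with a median of 2.35. Vldlr, the very low density lipoprotein receptor, had too few reads to be tested.

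The first step showed the widest gap. Hk2, the inducible hexokinase that traps glucose in the cell, was at 0.302 and 0.207 CPM in the naive libraries and 70.8 and 105 in Th0, a log2 fold change of 8.33 ± 0.39 (adjusted p = 5.2e-10). Hk1, the constitutive hexokinase, was already at 239 and 249 CPM in naive cells and 348 and 399 in Th0, a log2 fold change of 0.58 ± 0.10 (adjusted p = 0.00012). Both hexokinases were higher in Th0 without overlap, but Hk2 started from almost no reads. Among the phosphofructokinases, which commit sugar to glycolysis, Pfkl rose by 1.79 ± 0.12, Pfkp by 1.46 ± 0.16 and Pfkm by 0.97 ± 0.10 on the log2 scale. Of the 2 aldolases, which split the sugar into triose phosphates, the ubiquitous Aldoa rose by 1.46 ± 0.22. The other, Aldoc, a form best known from brain, was at 3.02 and 3.63 CPM in naive cells and 51.8 and 109 in Th0, a log2 fold change of 4.56 ± 0.45 (adjusted p = 2.1e-05). Further down the pathway, Tpi1, triose phosphate isomerase, was at 55.4 and 64.9 CPM in naive cells and 901 and 1156 in Th0, 4.06 ± 0.19 (adjusted p = 2.3e-09) on the log2 scale. The later enzymes Gapdh, Pgk1, Pgam1, Eno1 and Pkm rose by between 1.31 and 2.65. None of these later enzymes had as wide a log2 fold change as Tpi1.

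At the end of the chain, Ldha, the lactate dehydrogenase subunit that favours lactate, was at 702 and 652 CPM in naive cells and 1976 and 2223 in Th0, a log2 fold change of 1.60 ± 0.09 (adjusted p = 4.9e-10). The lactate exporter Slc16a3 was at 2.52 and 1.76 CPM in naive cells and 112 and 186 in Th0, a log2 fold change of 6.08 ± 0.44 (adjusted p = 1.9e-06). Its relative Slc16a1, which carries lactate in both directions, rose by 1.74 ± 0.08. Both transporters were higher in Th0 in every library, and Slc16a3 went from a trace to a clear signal. The bifunctional enzymes Pfkfb3 and Pfkfb4, which set the level of an activator of phosphofructokinase, fell among the glycolysis members, at -0.29 ± 0.13 (adjusted p = 0.048) and -0.39 ± 0.15 (adjusted p = 0.031) on the log2 scale. Neither call lasted when single libraries were left out: that of Pfkfb3 was lost without naive replicate 1 (0.147), naive replicate 2 (0.110) or Th0 replicate 1 (0.630) and that of Pfkfb4 without naive replicate 1 (0.0641), naive replicate 2 (0.0978), Th0 replicate 1 (0.128) or Th0 replicate 2 (0.0838), with the adjusted p in brackets.

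Hif1a itself differed little, at 199 and 183 CPM in naive cells and 234 and 269 in Th0, a log2 fold change of 0.37 ± 0.10 (adjusted p = 0.0049) that was lost without naive replicate 2 (0.0537). HIF is mainly controlled through the stability of this protein, which RNA does not report, so the activity of HIF was not tested. Several of the hypoxia members showed wider changes than Hif1a, while Pdk1, Bnip3l, Mxi1 and Ddit4, given below, changed by about as little. Ak4, a mitochondrial adenylate kinase, was at 0.403 and 0 CPM in naive cells and 23.8 and 56.9 in Th0, a log2 fold change of 7.51 ± 0.82 (adjusted p = 3.0e-05). Nrn1, neuritin, a membrane-anchored protein first described in neurons and expressed by Treg cells, was at 1.51 and 0.518 CPM in naive cells and 222 and 287 in Th0, 7.91 ± 0.51 (adjusted p = 1.1e-06) on the log2 scale. Vegfa, the angiogenic growth factor, was at 0.604 and 0.726 CPM in naive cells and 6.44 and 20.5 in Th0, 4.29 ± 0.66 (adjusted p = 0.00019) on the log2 scale. All 3 were close to absent in naive cells and higher in both Th0 libraries. Bnip3, a receptor that sends mitochondria to autophagy, rose by 3.87 ± 0.43, and Ankrd37 by 3.48 ± 0.27. Ndrg1, a stress-induced cytoplasmic protein, rose by 2.58 ± 0.25, the mitochondrial protein gene Higd1a by 2.11 ± 0.12 and Ero1l, an oxidase of the endoplasmic reticulum, by 1.64 ± 0.20. Pdk1, the kinase that inhibits pyruvate dehydrogenase, went against this trend. Its level was 407 and 476 CPM in naive cells and 318 and 378 in Th0, a log2 fold change of -0.37 ± 0.09 (adjusted p = 0.0024). Bnip3l, the close relative of Bnip3, fell likewise, by 0.41 ± 0.13. The call for Pdk1 was lost without naive replicate 2 (0.0522) or Th0 replicate 1 (0.0718), and that for Bnip3l without naive replicate 1 (0.0996) or Th0 replicate 1 (0.282). Mxi1, an antagonist of Myc, and Ddit4, an inhibitor of mTORC1, did not pass the test, at 0.33 ± 0.17 (adjusted p = 0.088) and 0.28 ± 0.29 (adjusted p = 0.41).

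The 2 Th0 libraries stood further apart on these genes than the replicates of the other culture and naive groups. Replicate 1 was below replicate 2 for 31 of the 31 members at 10 CPM or more, with a median ratio of 1.29 and ratios up to 3.19 (Vegfa), while the median ratio between replicates of the other culture and naive groups was 1.06 to 1.17. Smaller shifts to 1 side were seen elsewhere. Replicate 1 was above replicate 2 for 25 of 29 such members with TGFβ alone and 25 of 29 with vitamin C. It was above for 7 of 28 with retinoic acid, 18 of 28 with both and 13 of 24 in naive cells. Called members are therefore not independent of each other. Without Th0 replicate 1, 29 members were called, and without replicate 2, 30. The 7 proliferation genes Mki67, Top2a, Cdk1, Ccnb1, Mcm2, Mcm5 and Pcna all rose too, from a sum of 417 to 456 CPM in naive cells to 4615 to 4729 in Th0, while both CD8 T cell markers (Cd8a and Cd8b1) fell, from 31.2 to 33.7 CPM to 14.9 to 15.9, and 3 of 3 myeloid markers tested fell, from 14.5 to 15.4 CPM to 0.585 to 0.993 over the list. Erythroid and platelet markers summed to 1.21 to 2.38 CPM in naive cells and 96.99 to 135 in Th0. The part of these lists in the members' change was not tested.

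A part of the programme was lower in iTreg cells made with TGFβ than in Th0 cells. Against Th0, 14 of the 33 members tested fell and 1 rose in the iTreg cells with TGFβ alone, where 11.6% of genes fell and 14.5% rose. The members' median log2 fold change was -0.36 and that of all genes 0.00. Of the glycolysis members 10 fell and 0 rose by edgeR, and 0 rose by an unadjusted p below 0.05, by DESeq2 or by limma. Of the hypoxia members 4 fell and 1, Hif1a, rose. Ankrd37 was at 26.6 and 30.5 CPM in Th0 and 7.57 and 8.39 with TGFβ, -1.87 ± 0.23 (adjusted p = 3.6e-05) on the log2 scale. Nrn1 was at 222 and 287 CPM against 85.4 and 77.6, -1.67 ± 0.29 (adjusted p = 0.0045). Ak4 was at 23.8 and 56.9 CPM against 14.0 and 10.01, -1.78 ± 0.42 (adjusted p = 0.016). All 3 were lower with TGFβ in every library.

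Among the enzymes, Aldoa was at 1114 and 1498 CPM in Th0 and 887 and 654 with TGFβ, -0.79 ± 0.22 (adjusted p = 0.028) on the log2 scale. Tpi1 was at 901 and 1156 CPM against 691 and 571, -0.73 ± 0.16 (adjusted p = 0.0071). Pgk1, the first enzyme of the chain to yield ATP, was at 1263 and 1784 CPM against 1087 and 911, -0.64 ± 0.15 (adjusted p = 0.011). None of these enzymes overlapped between the groups. Hk2 was at 70.8 and 105 CPM against 59.2 and 57.7, -0.62 ± 0.18 (adjusted p = 0.024). Ldha was at 1976 and 2223 CPM against 1713 and 1639, -0.36 ± 0.09 (adjusted p = 0.0092). Both stayed far above naive cells. Hif1a was at 234 and 269 CPM in Th0 and 331 and 321 with TGFβ, 0.35 ± 0.10 (adjusted p = 0.022), the single member that rose. Many of these calls were lost without 1 library, and against a required log2 fold change of 0.5 edgeR called 2 members. The counts that follow include members not called in the main test. Without Th0 replicate 2, more members rose and fewer fell than in the main test. With TGFβ replicate 2 left out 6 members were called, with Th0 replicate 2 left out 10, with TGFβ replicate 1 left out 13 and with Th0 replicate 1 left out 21. The call for Hk2 was lost without TGFβ replicate 1 (0.100), TGFβ replicate 2 (0.106) or Th0 replicate 2 (0.235), that for Hif1a without TGFβ replicate 1 (0.125), TGFβ replicate 2 (0.0630) or Th0 replicate 1 (0.192) and that for Ak4 without TGFβ replicate 1 (0.0706) or TGFβ replicate 2 (0.109). The call for Aldoa was lost without TGFβ replicate 2 (0.128) or Th0 replicate 2 (0.100), that for Pgk1 without TGFβ replicate 2 (0.0842) or Th0 replicate 2 (0.0806), that for Ldha without TGFβ replicate 2 (0.0721) or Th0 replicate 2 (0.0926) and that for Tpi1 without TGFβ replicate 2 (0.0592). Pgam1, Slc16a1, Nrn1, Ankrd37 and Higd1a kept their calls without each library in turn. Of the 7 proliferation genes 3 fell, with sums of 4615 to 4729 CPM in Th0 and 3979 to 4233 with TGFβ, a difference whose part was not tested.

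**Figure D3:**
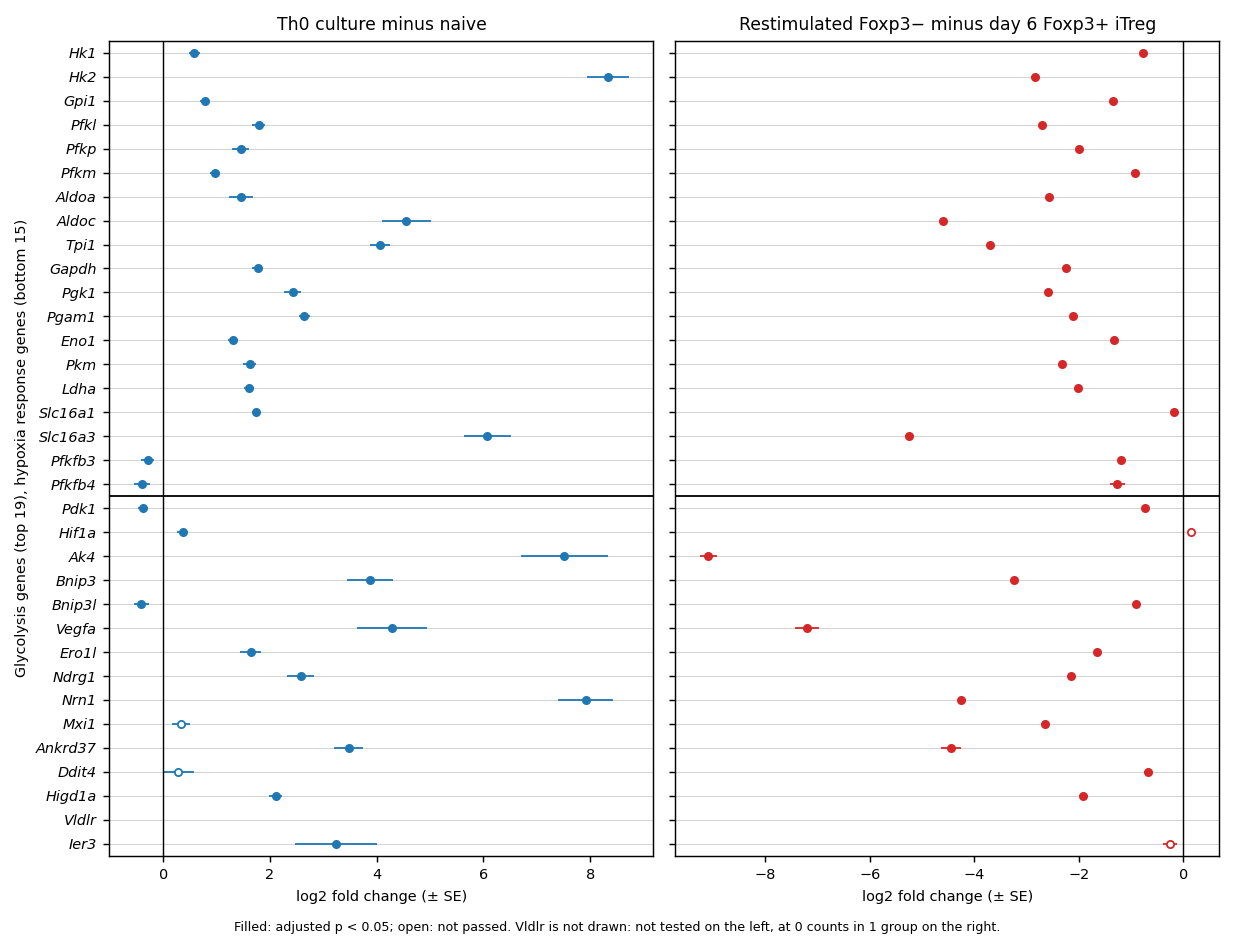
Log2 fold change of each member, with its SE as the error bar, for Th0 against naive cells and for restimulated Foxp3- cells against day 6 iTreg cells. Filled points have an adjusted p below 0.05, and Vldlr is not drawn. Most members are above 0 on activation, up to 8.33 for Hk2, and below 0 after restimulation, down to -9.09 for Ak4.

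Vitamin C and retinoic acid each lowered glycolysis transcripts in iTreg cells, and the cultures with both had the lowest levels. With vitamin C added to TGFβ, 16 of 33 members fell and 0 rose by edgeR (1 rose by an unadjusted p below 0.05 and 0 by DESeq2 or limma), where 7.99% of genes fell and 8.84% rose. With retinoic acid added, 19 fell and 1 rose, where 9.29% of genes fell and 7.19% rose. With both against TGFβ alone, 24 fell and 2 rose, where 19.2% fell and 18.3% rose. The members' median log2 fold changes were -0.39, -0.65 and -0.78, against medians over all genes of between 0.00 and 0.02. By programme, vitamin C lowered 13 of the 19 glycolysis members and 3 of the 14 hypoxia members tested, retinoic acid 14 and 5, and both together 16 and 8. No glycolysis member rose in these 3 comparisons by edgeR, by an unadjusted p below 0.05, by DESeq2 or by limma. The 3 comparisons share the 2 TGFβ libraries, so their counts are not independent of each other. Against a required log2 fold change of 0.5, edgeR called 0 members with vitamin C, 6 with retinoic acid and 15 with both.

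Vitamin C and retinoic acid both lowered 12 members, 11 of them of glycolysis: Pfkl, Aldoa, Tpi1, Gapdh, Pgk1, Pgam1, Eno1, Pkm, Ldha, Slc16a1 and Slc16a3, with Ak4 as the single hypoxia member. Vitamin C lowered 4 that did not pass with retinoic acid (Gpi1, Pfkfb4, Ankrd37 and Higd1a), and retinoic acid lowered 7 that did not pass with vitamin C (Hk2, Pfkp, Aldoc, Bnip3, Ndrg1, Nrn1 and Ier3). The difference between the 2 supplements was not tested. The share of all genes that both supplements lowered was not counted. By mean level, 20 of the 34 members, 14 of the 19 of glycolysis, were lowest of the 4 iTreg cultures where both supplements were present. The share of all genes lowest there was not counted either.

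**Figure D4:**
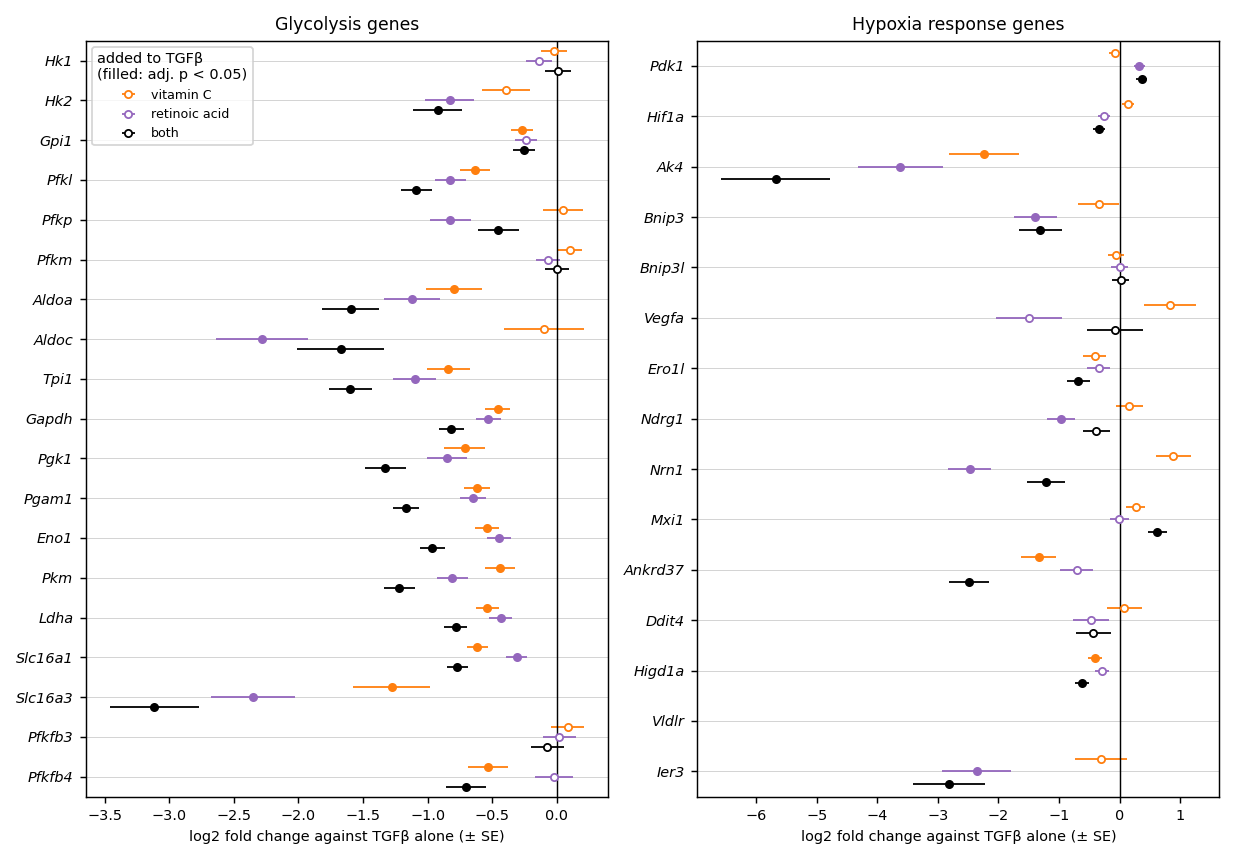
Log2 fold change of each member against TGFβ alone, with its SE as the error bar, for vitamin C, retinoic acid and both. Filled points have an adjusted p below 0.05, and Vldlr was not tested. Glycolysis members lie mostly below 0 in all 3 comparisons, down to -3.12 for Slc16a3 with both, while Hk1, Pfkm and Pfkfb3 lie near 0.

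In the steps that take glucose to triose phosphate, the members did not move as one. Hk2 was at 59.2 and 57.7 CPM with TGFβ alone, 49.6 and 40.9 with vitamin C, 37.6 and 28.6 with retinoic acid and 35.6 and 27.4 with both. Its log2 fold changes against TGFβ alone were -0.39 ± 0.19 (adjusted p = 0.16) with vitamin C, -0.83 ± 0.19 (adjusted p = 0.0099) with retinoic acid and -0.92 ± 0.19 (adjusted p = 0.0021) with both. All 6 supplemented libraries were below both TGFβ libraries, while the test passed only where retinoic acid was present. Pfkl, the liver-type phosphofructokinase, was at 203 and 170.2 CPM with TGFβ alone, 133 and 111 with vitamin C, 105 and 108 with retinoic acid and 92.4 and 87.0 with both. The corresponding log2 fold changes were -0.63 ± 0.12 (adjusted p = 0.0025) with vitamin C, -0.83 ± 0.12 (adjusted p = 0.00023) with retinoic acid and -1.09 ± 0.12 (adjusted p = 7.4e-06) with both. Here too the groups did not overlap with TGFβ alone. Pfkp, the platelet-type form, was at 295 and 256 CPM with TGFβ alone, 314 and 265 with vitamin C, 152 and 162 with retinoic acid and 221 and 190.1 with both. It changed by 0.05 ± 0.15 (adjusted p = 0.87) with vitamin C, -0.82 ± 0.16 (adjusted p = 0.0034) with retinoic acid and -0.45 ± 0.16 (adjusted p = 0.037) with both. With vitamin C alone Pfkp overlapped the unsupplemented cultures, and the 4 libraries with retinoic acid were below. Hk1 and Pfkm passed none of these tests, with log2 fold changes of -0.02, -0.14 and 0.01 for Hk1 and 0.10, -0.07 and -0.00 for Pfkm. Without single libraries the Hk2 call with retinoic acid was lost for TGFβ + RA replicate 2 (0.0720) or TGFβ replicate 1 (0.0694), and the Pfkp calls were lost for TGFβ + RA replicate 1 (0.0718) with retinoic acid and for TGFβ + RA + VitC replicate 2 (0.198) or TGFβ replicate 1 (0.211) with both.

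Of the 2 aldolases, Aldoa fell in all 3 comparisons and Aldoc in the 2 with retinoic acid. Aldoa was at 887 and 654 CPM with TGFβ alone, 543 and 358 with vitamin C, 343 and 371 with retinoic acid and 269 and 251 with both. Its log2 fold changes were -0.80 ± 0.22 (adjusted p = 0.038) with vitamin C, -1.12 ± 0.22 (adjusted p = 0.00899) with retinoic acid and -1.60 ± 0.22 (adjusted p = 0.000603) with both. The level fell with either supplement and was lowest with both. Aldoc was at 88.9 and 69.0 CPM with TGFβ alone, 79.7 and 70.1 with vitamin C, 13.04 and 19.8 with retinoic acid and 22.4 and 28.1 with both. It changed by -0.10 ± 0.31 (adjusted p = 0.86) with vitamin C, -2.28 ± 0.35 (adjusted p = 0.0033) with retinoic acid and -1.67 ± 0.34 (adjusted p = 0.0049) with both. Vitamin C alone left Aldoc overlapping the TGFβ libraries, and the 4 libraries with retinoic acid lay far below. The Aldoa call was lost without TGFβ replicate 1 (0.188) or TGFβ + VitC replicate 2 (0.104) for vitamin C and without TGFβ + RA replicate 1 (0.109), TGFβ + RA replicate 2 (0.0597) or TGFβ replicate 1 (0.0591) for retinoic acid, and the Aldoc call without TGFβ + RA replicate 1 (0.0602) for retinoic acid and without TGFβ + RA + VitC replicate 1 (0.0618) for both.

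The enzymes from triose phosphate to pyruvate fell with each supplement. Tpi1 was at 691 and 571 CPM with TGFβ alone, 416 and 301 with vitamin C, 274 and 319.8 with retinoic acid and 216 and 209 with both. Its log2 fold changes were -0.84 ± 0.16 (adjusted p = 0.00604) with vitamin C, -1.10 ± 0.16 (adjusted p = 0.00089) with retinoic acid and -1.60 ± 0.17 (adjusted p = 2.3e-05) with both. The order was the same as for Aldoa, from TGFβ alone down to both supplements. Pgk1 was at 1087 and 911 CPM with TGFβ alone, 693 and 545 with vitamin C, 519.7 and 596 with retinoic acid and 408 and 404 with both. It changed by -0.71 ± 0.16 (adjusted p = 0.011) with vitamin C, -0.85 ± 0.16 (adjusted p = 0.0033) with retinoic acid and -1.33 ± 0.16 (adjusted p = 5.9e-05) with both. The 2 libraries with both supplements were the lowest of the 8. Pgam1, phosphoglycerate mutase, was at 479 and 432 CPM with TGFβ alone, 319 and 283 with vitamin C, 288 and 298 with retinoic acid and 208 and 205 with both. Its changes were -0.62 ± 0.10 (adjusted p = 0.00094) with vitamin C, -0.65 ± 0.10 (adjusted p = 0.00042) with retinoic acid and -1.17 ± 0.10 (adjusted p = 8.0e-07) with both. Pgam1 was lower in each of the 5 supplement comparisons, also with any single library left out, which no other member was. Eno1, enolase, was at 489 and 458 CPM with TGFβ alone, 349 and 313 with vitamin C, 344 and 355 with retinoic acid and 258 and 237 with both. The changes were -0.54 ± 0.10 (adjusted p = 0.0017) with vitamin C, -0.45 ± 0.10 (adjusted p = 0.0047) with retinoic acid and -0.97 ± 0.10 (adjusted p = 2.7e-06) with both. Vitamin C and retinoic acid alone gave overlapping Eno1 levels, and both together gave lower ones. Pkm, pyruvate kinase, was at 2522 and 2109 CPM with TGFβ alone, 1957 and 1511 with vitamin C, 1299 and 1364 with retinoic acid and 1038 and 989.7 with both. It changed by -0.44 ± 0.12 (adjusted p = 0.022) with vitamin C, -0.81 ± 0.12 (adjusted p = 0.00039) with retinoic acid and -1.22 ± 0.12 (adjusted p = 4.4e-06) with both. Pkm was lower with retinoic acid than with vitamin C in each library. Gapdh changed by -0.46, -0.53 and -0.82 in the same order of comparisons. Single libraries ended the vitamin C calls of Tpi1 (without TGFβ replicate 1 (0.0559)), Pgk1 (without TGFβ replicate 1 (0.0877) or TGFβ + VitC replicate 2 (0.0695)), Gapdh (without TGFβ replicate 1 (0.0813) or TGFβ + VitC replicate 2 (0.0761)) and Pkm (without TGFβ replicate 1 (0.187) or TGFβ + VitC replicate 2 (0.185)), and the retinoic acid calls of Pgk1 (without TGFβ + RA replicate 1 (0.0852)) and Eno1 (without TGFβ replicate 1 (0.0581)).

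Transcripts for lactate production and export fell as well. Ldha was at 1713 and 1639 CPM with TGFβ alone, 1222 and 1126 with vitamin C, 1140.5 and 1362 with retinoic acid and 962 and 1026 with both. Its log2 fold changes were -0.54 ± 0.09 (adjusted p = 0.0011) with vitamin C, -0.43 ± 0.09 (adjusted p = 0.0037) with retinoic acid and -0.78 ± 0.09 (adjusted p = 9.9e-06) with both. All 6 supplemented libraries were below both with TGFβ alone. Slc16a1 was at 104 and 102 CPM with TGFβ alone, 68.4 and 67.9 with vitamin C, 82.6 and 84.2 with retinoic acid and 61.7 and 61.3 with both. It changed by -0.62 ± 0.08 (adjusted p = 0.00018) with vitamin C, -0.31 ± 0.08 (adjusted p = 0.014) with retinoic acid and -0.77 ± 0.08 (adjusted p = 4.5e-06) with both. This transporter was lower with vitamin C than with retinoic acid in each library. Slc16a3 was at 109 and 79.1 CPM with TGFβ alone, 49.8 and 29.0 with vitamin C, 18.2 and 18.9 with retinoic acid and 9.91 and 12.1 with both. Its changes were -1.28 ± 0.30 (adjusted p = 0.022) with vitamin C, -2.35 ± 0.32 (adjusted p = 0.0016) with retinoic acid and -3.12 ± 0.34 (adjusted p = 0.00015) with both. Slc16a3 was the glycolysis member with the widest fall, 8.68-fold lower where both were present. The vitamin C call of Slc16a3 was lost without TGFβ replicate 1 (0.141) or TGFβ + VitC replicate 2 (0.0913), and the retinoic acid call of Slc16a1 without TGFβ + RA replicate 1 (0.0560) or TGFβ replicate 1 (0.103). Pfkfb4 fell by 0.53 ± 0.16 (adjusted p = 0.0298) with vitamin C and fell by 0.70 ± 0.16 (adjusted p = 0.0027) with both, the first of which was lost without TGFβ replicate 1 (0.154), TGFβ replicate 2 (0.0892), TGFβ + VitC replicate 1 (0.115) or TGFβ + VitC replicate 2 (0.114). Pfkfb3 passed none, at 0.08, 0.02 and -0.07.

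The hypoxia members were less uniform. Hif1a was at 331 and 321 CPM with TGFβ alone, 393 and 336 with vitamin C, 286 and 261 with retinoic acid and 277 and 249 with both. Its log2 fold changes were 0.14 ± 0.10 (adjusted p = 0.38) with vitamin C, -0.26 ± 0.10 (adjusted p = 0.093) with retinoic acid and -0.34 ± 0.10 (adjusted p = 0.017) with both. Both vitamin C libraries were above TGFβ alone, which did not pass the test, and the 4 libraries with retinoic acid were the lowest. The call with both was lost without TGFβ + RA + VitC replicate 2 (0.126) or TGFβ replicate 1 (0.0884). Ak4 was at 14.0 and 10.01 CPM with TGFβ alone, 3.49 and 1.66 with vitamin C, 0.661 and 1.30 with retinoic acid and 0.385 and 0.0859 with both. It changed by -2.24 ± 0.58 (adjusted p = 0.031) with vitamin C, -3.62 ± 0.70 (adjusted p = 0.0087) with retinoic acid and -5.68 ± 0.90 (adjusted p = 0.0013) with both. Ak4 fell in steps from TGFβ alone to almost no reads with both. Its calls were lost without TGFβ replicate 1 (0.156), TGFβ replicate 2 (0.0823), TGFβ + VitC replicate 1 (0.0819) or TGFβ + VitC replicate 2 (0.181) for vitamin C and without TGFβ + RA replicate 1 (0.109), TGFβ + RA replicate 2 (0.0515) or TGFβ replicate 1 (0.0711) for retinoic acid. Bnip3 was at 105 and 91.3 CPM with TGFβ alone, 87.3 and 69.9 with vitamin C, 33.9 and 41.6 with retinoic acid and 41.1 and 39.9 with both. The changes were -0.34 ± 0.34 (adjusted p = 0.53) with vitamin C, -1.39 ± 0.35 (adjusted p = 0.034) with retinoic acid and -1.31 ± 0.35 (adjusted p = 0.021) with both. The vitamin C libraries were a little below TGFβ alone and the 4 with retinoic acid far below. The call was lost without TGFβ + RA replicate 1 (0.223), TGFβ + RA replicate 2 (0.109), TGFβ replicate 1 (0.183) or TGFβ replicate 2 (0.0959) for retinoic acid and without TGFβ + RA + VitC replicate 1 (0.119), TGFβ + RA + VitC replicate 2 (0.128), TGFβ replicate 1 (0.113) or TGFβ replicate 2 (0.0625) for both.

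Nrn1 went in opposite directions by level with the supplements. Nrn1 was at 85.4 and 77.6 CPM with TGFβ alone, 169 and 138 with vitamin C, 14.6 and 14.8 with retinoic acid and 48.9 and 22.8 with both. Its log2 fold changes were 0.89 ± 0.29 (adjusted p = 0.076) with vitamin C, -2.48 ± 0.35 (adjusted p = 0.00201) with retinoic acid and -1.22 ± 0.31 (adjusted p = 0.016) with both. Both vitamin C libraries were above TGFβ alone, which did not pass the test, and the 4 with retinoic acid were below. The call with both was lost without TGFβ replicate 1 (0.0961) or TGFβ replicate 2 (0.06004). Mxi1 was at 60.9 and 50.6 CPM with TGFβ alone, 74.5 and 62.1 with vitamin C, 58.5 and 53.5 with retinoic acid and 90.2 and 85.05 with both. It changed by 0.27 ± 0.15 (adjusted p = 0.25) with vitamin C, -0.01 ± 0.16 (adjusted p = 0.99) with retinoic acid and 0.62 ± 0.15 (adjusted p = 0.0059) with both, and the last of these was lost without TGFβ replicate 2 (0.0646). Mxi1 and Pdk1 were the 2 members that rose with both supplements. Pdk1 was at 328 and 333 CPM with TGFβ alone, 335 and 300.1 with vitamin C, 415 and 419.9 with retinoic acid and 426 and 441 with both. Its changes were -0.08 ± 0.09 (adjusted p = 0.598) with vitamin C, 0.33 ± 0.09 (adjusted p = 0.028) with retinoic acid and 0.36 ± 0.09 (adjusted p = 0.0075) with both. The retinoic acid libraries were above all without it, but the calls were lost without TGFβ + RA replicate 1 (0.0900), TGFβ + RA replicate 2 (0.0731), TGFβ replicate 1 (0.166) or TGFβ replicate 2 (0.121) for retinoic acid and without TGFβ replicate 1 (0.0520) for both. Ankrd37 changed by -1.33 ± 0.29 (adjusted p = 0.0068) with vitamin C, -0.71 ± 0.27 (adjusted p = 0.091) with retinoic acid and -2.48 ± 0.33 (adjusted p = 4.3e-05) with both, with the vitamin C call lost without TGFβ + VitC replicate 1 (0.0667). Higd1a fell by 0.40 ± 0.12 (adjusted p = 0.029) with vitamin C, lost without TGFβ replicate 1 (0.103), TGFβ replicate 2 (0.127) or TGFβ + VitC replicate 1 (0.202), and by 0.63 ± 0.12 (adjusted p = 0.00072) with both. Ndrg1 fell by 0.97 ± 0.23 (adjusted p = 0.018) with retinoic acid, lost without TGFβ + RA replicate 1 (0.165), TGFβ + RA replicate 2 (0.0952) or TGFβ replicate 1 (0.133). Vegfa, Bnip3l and Ddit4 passed none of the 3 tests, with log2 fold changes of 0.83, -1.49 and -0.08 for Vegfa, -0.06, 0.00 and 0.02 for Bnip3l and 0.08, -0.48 and -0.43 for Ddit4. Vldlr had 11 reads over the TGFβ libraries and 0 over those with retinoic acid, at least 3.52-fold lower by pooled CPM against a floor of 3 counts over the group.

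Each supplement was also compared with the other present. Vitamin C added to TGFβ and retinoic acid lowered 6 members and raised 1, where 3.22% of genes fell and 4.31% rose, with a member median of -0.26. The 6 were Pgam1 (-0.52 ± 0.10, adjusted p = 0.005), Eno1 (-0.52 ± 0.10, adjusted p = 0.0038), Slc16a1 (-0.46 ± 0.08, adjusted p = 0.0027), Ldha (-0.35 ± 0.09, adjusted p = 0.025), Pfkfb4 (-0.68 ± 0.16, adjusted p = 0.015) and Ankrd37 (-1.78 ± 0.36, adjusted p = 0.0067). Mxi1 rose by 0.63 ± 0.15 (adjusted p = 0.022). Glycolysis members that rose numbered 0 by edgeR, DESeq2 and limma and 1 by an unadjusted p below 0.05. Hk2 and Hif1a did not pass, at -0.09 ± 0.20 (adjusted p = 0.85) and -0.08 ± 0.10 (adjusted p = 0.74). Without TGFβ + RA replicate 2 or TGFβ + RA + VitC replicate 1, 3 members were called, and without TGFβ + RA + VitC replicate 2, 4. DESeq2 called 11 members, and edgeR against a required log2 fold change of 0.5 called 1. With any single library left out Pgam1 and Slc16a1 kept their calls, and the call for Ldha was lost without TGFβ + RA replicate 2 (0.223), TGFβ + RA + VitC replicate 1 (0.172) or TGFβ + RA + VitC replicate 2 (0.0875) and that for Mxi1 without TGFβ + RA replicate 1 (0.0573), TGFβ + RA replicate 2 (0.165), TGFβ + RA + VitC replicate 1 (0.112) or TGFβ + RA + VitC replicate 2 (0.0577).

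Retinoic acid added to TGFβ and vitamin C lowered 14 members and raised 1, where 9.3% of genes fell and 5.81% rose, with a member median of -0.50. Of these, 11 were glycolysis members, of which 0 rose by edgeR, by an unadjusted p below 0.05, by DESeq2 or by limma. Nrn1 (-2.11 ± 0.31, adjusted p = 0.0024), Slc16a3 (-1.84 ± 0.36, adjusted p = 0.0086) and Aldoc (-1.57 ± 0.34, adjusted p = 0.015) fell most, followed by Aldoa (-0.80 ± 0.22, adjusted p = 0.042), Pkm (-0.78 ± 0.12, adjusted p = 0.00048) and Tpi1 (-0.76 ± 0.17, adjusted p = 0.0086). Hif1a fell by 0.48 ± 0.10 (adjusted p = 0.0046) and Pdk1 rose by 0.44 ± 0.09 (adjusted p = 0.0046), while Hk2 (-0.53 ± 0.19, adjusted p = 0.089) and Ldha (-0.25 ± 0.09, adjusted p = 0.0797) did not pass. Leaving out TGFβ + RA + VitC replicate 2 left 5 members called, TGFβ + VitC replicate 1 left 6 and TGFβ + RA + VitC replicate 1 left 9. Pgam1, Pkm and Nrn1 kept their calls with any single library left out, and edgeR against a required log2 fold change of 0.5 called 3 members. The call for Slc16a3 was lost without TGFβ + RA + VitC replicate 1 (0.0995) or TGFβ + RA + VitC replicate 2 (0.0832), that for Aldoc without TGFβ + RA + VitC replicate 1 (0.137), TGFβ + RA + VitC replicate 2 (0.0995), TGFβ + VitC replicate 1 (0.117) or TGFβ + VitC replicate 2 (0.0540), that for Aldoa without TGFβ + RA + VitC replicate 1 (0.145), TGFβ + RA + VitC replicate 2 (0.224) or TGFβ + VitC replicate 1 (0.178), that for Tpi1 without TGFβ + RA + VitC replicate 1 (0.0555), TGFβ + RA + VitC replicate 2 (0.0848) or TGFβ + VitC replicate 1 (0.0651) and that for Hif1a without TGFβ + RA + VitC replicate 2 (0.0591) or TGFβ + VitC replicate 1 (0.0830).

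The test of the interaction, whether vitamin C acted differently with and without retinoic acid, called 0 of 33 members by edgeR in either direction, by DESeq2 or by limma, and 1 by an unadjusted p below 0.05. Over all genes 0% were called higher and 0.0177% lower. The members' differences ranged from -0.44 to 0.71 on the log2 scale, and the lowest adjusted p was that of Pfkl, 0.37 ± 0.17 (adjusted p = 0.97). With 2 libraries a group, a p that misses the threshold does not show that the effects add.

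Counts of called members in these comparisons moved with single libraries. Members also shifted mostly to the same side between replicates with TGFβ alone, vitamin C or retinoic acid, as given above. With vitamin C, 6 of 33 members were called without TGFβ replicate 1, 8 without TGFβ + VitC replicate 2 and 12 without either of the others, and Pfkl, Pgam1, Eno1, Ldha and Slc16a1 kept their calls without each of the 4 in turn. With retinoic acid, 11 were called without TGFβ replicate 1 or without TGFβ + RA replicate 1, and Pfkl, Tpi1, Gapdh, Pgam1, Pkm, Ldha, Slc16a3 and Nrn1 kept their calls. With both, 19 to 23 were called as single libraries were left out, and 17 kept their calls each time. The proliferation genes moved with the members: 5 of 7 fell with vitamin C, 6 with retinoic acid and all 7 with both. Their sum was 3979 to 4233 CPM with TGFβ alone, 3170.3 to 3561 with vitamin C, 2945 to 3155 with retinoic acid and 2363 to 2594 with both. Among 7 erythroid and platelet markers, 1 of the 2 tested fell with either supplement and 2 with both. Their summed level, which includes haemoglobin RNA, was 130.2 to 179 CPM with TGFβ alone, 49.0 to 69.0 with vitamin C, 38.8 to 71.3 with retinoic acid and 8.66 to 16.3 with both, with Slc4a1, Pf4 and Ppbp at 0 in all of them. Both CD8 T cell markers rose with vitamin C and with both, while with retinoic acid Cd8a rose and Cd8b1 fell. Their sum was 13.2 to 15.4 CPM with TGFβ alone, 23.3 to 28.2 with vitamin C, 11.02 to 11.6 with retinoic acid and 39.0 to 42.1 with both. The 6 B cell markers summed to 3.05 to 3.47 CPM with TGFβ alone, 4.52 to 6.80 with vitamin C, 5.81 to 6.05 with retinoic acid and 11.6 to 14.6 with both, where Cd79b rose and Pax5, Ms4a1 and Blk were at 0 in all 8 libraries. Myeloid and dendritic markers were at most 5.19 CPM in sum and NK cell markers at most 0.289. The part of these lists in the members' changes was not tested.

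Other genes of the same pathways were read from lists made with earlier results of these data known. Over all genes, 8.84% rose and 7.99% fell with vitamin C, and 7.19% rose and 9.29% fell with retinoic acid. With both, 18.3% rose and 19.2% fell, and in Th0 against naive cells 35.7% rose and 36.4% fell. The counts of these lists were not tested against those shares. Of 18 tested glycolysis genes that are not members, 2 rose and 3 fell with vitamin C, 1 rose and 6 fell with retinoic acid and 3 rose and 6 fell with both. The glucose transporter Slc2a1 rose on activation (2.203 ± 0.14, adjusted p = 2.3e-09) and fell with retinoic acid (-0.66 ± 0.13, adjusted p = 0.0036). Of 35 other hypoxia response genes, 19 rose and 7 fell in Th0 against naive cells, while 3 rose and 7 fell with vitamin C, 7 fell with retinoic acid and 3 rose and 16 fell with both. Mif, a cytokine, fell in all 3 supplement comparisons (-1.09 ± 0.10, adjusted p = 1.3e-06 with both). Of 13 regulators of HIF, 3 rose and 4 fell with both, with a median of -0.02 and a range of -1.997 to 1.69. The widest fall was that of Epas1, which encodes another HIF alpha subunit (-1.997 ± 0.21, adjusted p = 3.6e-06). Txnip, a brake on glucose uptake, fell on activation (-2.29 ± 0.10, adjusted p = 1.4e-11) and rose with both (0.93 ± 0.09, adjusted p = 2.4e-06). Pentose phosphate genes numbered 1 up and 3 down of 10 with both, the pyruvate dehydrogenase axis 3 up and 1 down of 13 and glycolysis regulators 2 up and 2 down of 11, while the 3 tested genes of gluconeogenesis all rose in Th0 against naive cells.

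Control Treg cells taken from mice resembled naive cells in the glycolysis sum only with Gapdh included, and not in the hypoxia sum. Single genes differed widely. The hypoxia members took 0.140% to 0.157% of reads in control Treg libraries and 0.117% to 0.122% in naive ones, without overlap. The glycolysis sum includes Gapdh, which was lower in the Treg libraries and whose absolute level is uncertain. That sum was 4598 and 4621 CPM in naive libraries and 4442 to 5227 in control Treg ones. With Gapdh (values below) taken out, it was higher in every control Treg library than in both naive ones. Against naive cells 13 of 31 members tested rose and 6 fell, where 28.6% of genes rose and 26.3% fell, and the median was 0.22 against 0.01 over all genes. Nrn1 was at 1.51 and 0.518 CPM in naive libraries and 57.7, 59.7, 71.6 and 59.1 in control Treg libraries, 5.77 ± 0.26 (adjusted p = 6.3e-08) on the log2 scale. Hk2 was at 0.302 and 0.207 CPM against 15.04, 8.74, 12.0 and 10.2, 5.30 ± 0.41 (adjusted p = 1.6e-06). Slc16a3 was at 2.52 and 1.76 CPM against 32.5, 28.7, 33.9 and 25.3, 3.66 ± 0.22 (adjusted p = 2.6e-07). These 3 genes, also among those that rose most on activation in culture, were each far higher in every Treg library. Aldoc was at 3.02 and 3.63 CPM against 10.7, 11.5, 8.01 and 10.1, 1.46 ± 0.23 (adjusted p = 0.00033). Hif1a was at 199 and 183 CPM against 410.5, 418, 405 and 433, 0.99 ± 0.08 (adjusted p = 2.4e-06). Every control Treg library was above every culture of the first table in Hif1a. Among the falls, 2 were as plain. Gapdh was at 711 and 724 CPM against 185, 170.2, 192 and 154, -2.17 ± 0.09 (adjusted p = 2.2e-08), and Pdk1 at 407 and 476 CPM against 157, 152, 125 and 143, -1.76 ± 0.10 (adjusted p = 2.0e-07). Ldha did not pass, at 0.22 ± 0.10 (adjusted p = 0.0904). Bnip3 rose (0.59 ± 0.18, adjusted p = 0.017), but not without naive replicate 2 (0.189), and Pgk1 rose (0.29 ± 0.10, adjusted p = 0.028), but not without naive replicate 1 (0.166) or naive replicate 2 (0.0946). Aldoa fell (-0.29 ± 0.08, adjusted p = 0.013), but not without naive replicate 1 (0.0785) or naive replicate 2 (0.0959), and Pfkm fell (-0.49 ± 0.13, adjusted p = 0.0072), but not without naive replicate 1 (0.0860). Markers of other cells moved with this comparison. All 6 B cell markers rose, from a sum of 2.12 to 3.01 CPM in naive cells, with Pax5 at 0, to 43.9 to 107 in control Treg libraries. All 5 erythroid and platelet markers tested rose, from 1.21 to 2.38 CPM to 294 to 713. Of the 8 myeloid and dendritic markers tested 3 rose and 1 fell, with sums of 14.5 to 15.4 and 51.7 to 86.4 CPM. The 4 NK cell markers summed to 1.31 to 1.66 and 4.27 to 7.68 CPM, and the CD8 T cell markers to 31.2 to 33.7 and 24.8 to 28.5. The part of these markers in the members' changes was not tested. The groups differ in genotype and in age (3 against 5 to 6 weeks) as well as in cell type, and these cannot be told apart. Against a required log2 fold change of 0.5, 8 members were called.

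Against the iTreg cells made with TGFβ alone, control Treg cells had lower glycolysis transcripts almost throughout. Of 33 members 27 fell and 4 rose, where 29.1% of genes fell and 32.3% rose, with a median of -1.28 against 0.04. Of the glycolysis members 17 fell and 1 rose. Ak4 was at 0.358, 0.126, 0.391 and 0.172 CPM in control Treg libraries against 14.0 and 10.01 with TGFβ, -5.54 ± 0.34 (adjusted p = 4.4e-07) on the log2 scale. Aldoc was at 10.7, 11.5, 8.01 and 10.1 CPM against 88.9 and 69.0, -3.01 ± 0.15 (adjusted p = 1.3e-07). Bnip3 was at 12.9, 13.1, 14.7 and 14.2 CPM against 105 and 91.3, -2.88 ± 0.11 (adjusted p = 1.4e-08). The iTreg libraries were above every Treg library for each. Hk2 fell by 2.40 ± 0.18 (adjusted p = 2.4e-06), Tpi1 by 2.08 ± 0.19 (adjusted p = 0.000101), Gapdh by 3.52 ± 0.11 (adjusted p = 5.2e-09) and Ldha by 0.99 ± 0.10 (adjusted p = 1.5e-05). The members that rose were Pfkfb3 (0.56 ± 0.09, adjusted p = 0.00032), Bnip3l (0.50 ± 0.09, adjusted p = 0.00061), Ddit4 (1.08 ± 0.32, adjusted p = 0.031) and Hif1a (0.31 ± 0.07, adjusted p = 0.0043). Pfkfb3 and Bnip3l, which fell on activation, and Hif1a and Ddit4 were thus at higher levels in the Treg cells taken from mice. The call for Hif1a was lost without TGFβ replicate 2 (0.0542) and that for Ddit4 without TGFβ replicate 1 (0.0790), TGFβ replicate 2 (0.144) or control Treg library S2 (0.0507). All 7 proliferation genes fell too, to a sum of 545 to 986 CPM. Markers of other cells were higher in control Treg libraries: 6 of 6 B cell markers, 6 of 8 myeloid and dendritic markers tested, 2 of 2 NK cell markers, 2 of 2 CD8 T cell markers and 4 of 5 erythroid and platelet markers rose. With TGFβ their sums were 3.05 to 3.47 CPM for B cells, 2.098 to 3.24 for myeloid cells, 0 for NK cells, 13.2 to 15.4 for CD8 T cells and 130.2 to 179 for erythroid cells and platelets, against the control Treg sums given above. The part of these lists was not tested. Age and genotype again cannot be told apart from the origin of the cells.

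Libraries labelled Tet2/3-deficient had higher levels of several enzymes and HIF targets than control Treg libraries. Of 31 members tested 13 rose and 5 fell, where 16.7% of genes rose and 15.8% fell. The median log2 fold change of the members was 0.11 and that of all genes 0.00, so the shift of the set as a whole was small, and against a required log2 fold change of 0.5 edgeR called 3 members. Of the glycolysis members 7 rose and 3 fell (median 0.04), and of the hypoxia members 6 rose and 2 fell (median 0.26). Nrn1 was at 57.7, 59.7, 71.6 and 59.1 CPM in control libraries and 121, 169, 185 and 155 in those labelled Tet2/3-deficient, 1.31 ± 0.13 (adjusted p = 5.4e-05) on the log2 scale. Ndrg1 was at 50.9, 59.1, 52.1 and 47.3 CPM against 86.0, 85.5, 79.4 and 74.3, 0.60 ± 0.08 (adjusted p = 0.00032). Ak4 was at 0.358, 0.126, 0.391 and 0.172 CPM against 0.9703, 1.123, 0.905 and 1.41, 2.03 ± 0.38 (adjusted p = 0.0019), on few reads. For all 3 the lowest deficient library was above the highest control library.

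In the pathway itself, Hk2 was at 15.04, 8.74, 12.0 and 10.2 CPM in control libraries and 23.7, 19.5, 19.6 and 22.0 in the deficient ones, 0.85 ± 0.15 (adjusted p = 0.0017) on the log2 scale. Tpi1 was at 173, 132, 188 and 120.2 CPM against 214, 249, 249.6 and 245, 0.60 ± 0.14 (adjusted p = 0.0103). Pgam1 was at 155, 149, 191 and 157 CPM against 236, 259, 245 and 242, 0.55 ± 0.08 (adjusted p = 0.00051). None of these 3 overlapped between genotypes. Pgk1 rose by 0.36 ± 0.08 (adjusted p = 0.0038) and Gapdh by 0.31 ± 0.08 (adjusted p = 0.0089). Ldha was at 853, 844, 993 and 778 CPM against 989, 1056, 1039.9 and 1084, 0.23 ± 0.08 (adjusted p = 0.042). The Ldha libraries overlapped, since control library S3 was above deficient library S5, and the call was lost without Tet2/3-deficient library S6 (0.104), Tet2/3-deficient library S7 (0.0807), Tet2/3-deficient library S8 (0.103), control Treg library S1 (0.0705), control Treg library S2 (0.102) or control Treg library S4 (0.0913). Slc16a1 rose by 0.33 ± 0.09 (adjusted p = 0.016), a call lost without control Treg library S2 (0.0517). Aldoc went the other way, at 10.7, 11.5, 8.01 and 10.1 CPM in control libraries and 5.52, 6.36, 4.92 and 5.43 in the deficient ones, -0.90 ± 0.15 (adjusted p = 0.00087). Hk1 also fell (-0.31 ± 0.06, adjusted p = 0.0025). Hif1a was at 410.5, 418, 405 and 433 CPM against 379, 405, 383 and 361, -0.16 ± 0.05 (adjusted p = 0.033), with overlapping libraries and a call lost without Tet2/3-deficient library S5 (0.0632), Tet2/3-deficient library S7 (0.0866), Tet2/3-deficient library S8 (0.0917), control Treg library S2 (0.0778) or control Treg library S4 (0.0632). Pkm, Eno1, Aldoa, Gpi1 and Pfkl did not pass, with log2 fold changes between -0.20 and 0.11.

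**Figure D5:**
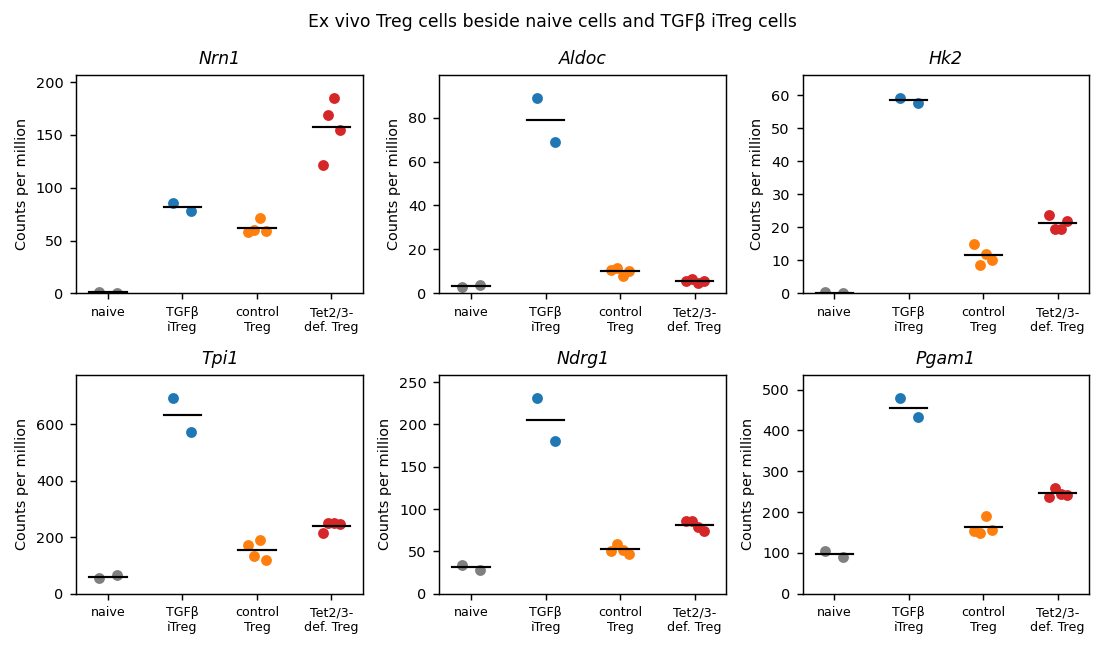
Level in CPM of Nrn1, Aldoc, Hk2, Tpi1, Ndrg1 and Pgam1 in each library of naive cells, iTreg cells with TGFβ, control Treg cells and Treg cells labelled Tet2/3-deficient, on linear axes. Points are libraries and lines are group means. For 5 of the 6 genes the deficient libraries are above the control libraries, and for Aldoc they are below.

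Markers of other cells and of division also differed between these genotypes. Of 7 proliferation genes 3 rose (Mcm5, Mcm2 and Pcna), and the sum of the list was 545 to 986 CPM in control libraries and 1372 to 1482 in those labelled Tet2/3-deficient. The 10 myeloid and dendritic markers summed to 51.7 to 86.4 and 66.8 to 166 CPM, with Clec9a at 0 in the latter. NK cell markers summed to 4.27 to 7.68 and 14.0 to 33.4 CPM, with both tested members higher and Klra8 at 0 in the deficient libraries. B cell markers summed to 43.9 to 107 and 41.9 to 60.2 CPM. Both CD8 T cell markers fell, from a sum of 24.8 to 28.5 CPM in control libraries to 3.37 to 5.30 in the deficient ones, by 2.97 ± 0.13 (adjusted p = 3.8e-08) on the log2 scale for Cd8b1. Erythroid and platelet markers summed to 294 to 713 and 198 to 409 CPM, and 1 of the 5 tested fell. The part of these in the members' changes was not tested. In the other lists, 4 of 19 other glycolysis genes fell. They include Ldhb, the subunit that favours pyruvate (-1.63 ± 0.10, adjusted p = 7.2e-07), and Slc2a1 (-0.45 ± 0.08, adjusted p = 0.0011). Of 32 other hypoxia genes 8 rose and 9 fell, and of 14 HIF regulators 2 rose and 4 fell. Of 10 tested glycolysis regulators 2 rose and 3 fell (median -0.10). Over all genes 16.7% rose and 15.8% fell. Myc, a driver of glycolytic genes, rose by 0.50 ± 0.06 (adjusted p = 9.9e-05) and Txnip fell by 0.91 ± 0.14 (adjusted p = 0.0015). Whether these genes bear on the members' changes was not tested.

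The Foxp3- cells sorted after restimulation had lower levels of nearly the whole programme. Against day 6 iTreg cells 32 of 34 members fell and 0 rose by edgeR, where 35.2% of genes fell and 33.6% rose. By other counts of members that rose, 1 passed an unadjusted p below 0.05, 0 DESeq2 and 1 limma. The member median was -2.13 on the log2 scale and that of all genes -0.01. All 19 glycolysis members fell (median -2.11), as did 13 of the 15 hypoxia members (median -2.14).

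Among the enzymes, Hk2 was at 131, 129 and 147 CPM in day 6 cells and 21.7, 20.4 and 18.4 after restimulation, -2.83 ± 0.08 (adjusted p = 2.0e-13) on the log2 scale. Aldoc was at 332, 330.3 and 343 CPM against 14.4, 14.9 and 14.2, -4.60 ± 0.07 (adjusted p = 2.8e-16). Tpi1 was at 2145, 2204 and 2254 CPM against 181, 192 and 166, -3.69 ± 0.07 (adjusted p = 6.2e-15). The day 6 libraries lay close together and far above the restimulated ones for each. Ldha was at 3999.7, 4151 and 4023 CPM against 1055, 1107 and 1018, -2.01 ± 0.06 (adjusted p = 5.0e-13). Slc16a3 was at 337, 331 and 338 CPM against 8.85, 10.8 and 8.13, -5.25 ± 0.08 (adjusted p = 1.4e-15), a 37.9-fold lower level. The other lactate transporter, Slc16a1, was by contrast at 99.9, 95.9 and 83.8 CPM against 88.8, 92.6 and 79.2, -0.18 ± 0.07 (adjusted p = 0.042), with overlapping libraries and a call lost without day 6 iTreg replicate 1 (0.169), day 6 iTreg replicate 2 (0.177), restimulated replicate 1 (0.0729) or restimulated replicate 3 (0.211). Gapdh, Pgk1, Pkm and Aldoa fell, with log2 fold changes between -2.59 and -2.25, as did Hk1 (-0.77) and Pfkm (-0.94).

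Several hypoxia members had the widest changes of all. Ak4 was at 64.1, 64.6 and 66.3 CPM in day 6 cells and 0.177, 0.126 and 0.0645 after restimulation, -9.09 ± 0.16 (adjusted p = 2.4e-15) on the log2 scale with 5 reads in all in the second group. Vegfa was at 33.8, 29.6 and 38.5 CPM against 0.266, 0.0630 and 0.387, -7.20 ± 0.23 (adjusted p = 1.6e-12). Ankrd37 was at 28.1, 31.2 and 39.3 CPM against 1.24, 1.45 and 1.999, -4.44 ± 0.19 (adjusted p = 2.8e-10). All 3 went from a clear signal to a trace. Vldlr, at 11.4, 11.2 and 11.9 CPM on 511 reads in day 6 cells, had 0 reads after restimulation, at least 163-fold lower against a floor of 3 counts over the group. Nrn1 was at 397, 433 and 451 CPM against 20.6, 25.5 and 24.7, -4.25 ± 0.08 (adjusted p = 6.5e-15). Bnip3 fell by 3.23 ± 0.06 (adjusted p = 2.4e-15), Mxi1 by 2.66 ± 0.07 (adjusted p = 1.2e-13) and Ndrg1 by 2.14 ± 0.06 (adjusted p = 2.7e-13). Hif1a itself was at 216, 199 and 179.9 CPM against 233, 244 and 218, 0.15 ± 0.07 (adjusted p = 0.057), which missed the threshold. Ier3, an early response gene, did not pass either, at -0.26 ± 0.14 (adjusted p = 0.096).

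Of the members, 25 both rose on activation of naive cells and fell here, 17 of them of glycolysis, in 2 comparisons that share no library. Of all genes tested, 35.7% rose on activation and 35.2% fell here, and the share that did both was not counted. Among other genes, 9 of 16 tested glycolysis genes fell and 3 rose, with the glucose transporters Slc2a3 (-2.80 ± 0.07, adjusted p = 9.1e-14) and Slc2a1 (-2.27 ± 0.06, adjusted p = 2.2e-13) among the falls. Of 35 other hypoxia genes 28 fell and 2 rose (median -0.85). Egln3, a HIF prolyl hydroxylase that is itself a HIF target, fell by 4.02 ± 0.09 (adjusted p = 4.0e-14), and Pcx, pyruvate carboxylase, fell by 3.12 ± 0.07 (adjusted p = 1.4e-14). Of the 7 proliferation genes 5 fell, with sums of 2229 to 2749 CPM in day 6 cells and 1459.7 to 1891 after restimulation. Both erythroid and platelet markers tested fell as well, Hba-a2 by 0.43 on the log2 scale and Hbb-b1 to 0 reads, with sums of 65.9 to 96.9 and 21.6 to 27.2 CPM. The CD8 T cell markers summed to 14.2 to 16.3 and 9.22 to 11.4 CPM, with Cd8b1 lower, and the B cell, myeloid and NK cell markers were at most 3.38 CPM in any library. The part of these lists was not tested. The groups differ in restimulation and in the Foxp3 gate used to sort them, and these cannot be told apart. The labels give day 6 for both sorts, for the second counted in relation to the restimulation, and do not give the total time in culture.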

How the data were processed

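Bulk RNA was extracted with RNeasy kits and made into libraries with a stranded TruSeq mRNA kit, per the labels' protocols. TopHat2 2.1.1 and build mm9 are named among the tools and builds, with edgeR 3.26.6, per the submitters' processing notes; the steps and settings are not given in the sources used here. The authors deposited raw counts per gene and FPKM values (scaled by exon length and library size). The counts were used for every level and main test, and the deposited FPKM for comparing genes and for limma. Gene rows without a symbol (92) were kept in library totals and fits. Column names of the control and Tet2/3-deficient Treg cells give the group but not the sample, so these columns have no pairing.

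Genes were filtered with filterByExpr in edgeR 4.0.16 (R 4.3.3) and scaled by TMM. Quasi-likelihood tests with Benjamini-Hochberg adjustment over all genes tested gave the calls. The naive and culture libraries were fitted together, and the other comparisons on their own libraries, the restimulation table separately. SEs are the fold change divided by the root of the F statistic. The scripts were tested on simulated counts. Alternatives were DESeq2 1.42.0, limma 3.58.1 on log2(FPKM + 1), RLE factors, raw library totals, no filter, a required log2 fold change of 0.5, a replicate block, a joint fit of the first table and leaving out each library. Up to 6 called members with the largest change and at least 10 CPM in a group are given in full per comparison, with Hif1a, Ldha and Hk2, and up to 4 genes of each other list could be named. Further members are given where they complete a role. The members and lists were chosen with earlier results of these data known. The promoter table and the transcripts used for shared sequence are on GRCm38, which differs from mm9, so no coordinate was joined to the counts.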

Additional observations from a re-analysis of the deposited data

Results flagged for a closer look

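In 3 members a single library stood apart from the others of its group of 4, the gap to the nearest one being a larger share of the group's whole range than Dixon's 95% critical value. Of 55 groups tested, chance flags about 1 in 20. In cells labelled Tet2/3-deficient, library S5 was low for Tpi1 (0.873 of the range; 214 CPM against 245 to 250) and high for Bnip3l (0.830; 306 CPM against 259 to 267). In control Treg cells, library S3 was high for Nrn1 (0.857; 71.6 CPM against 57.7 to 59.7). Tpi1 and Nrn1 still did not overlap between the genotypes, and their calls did not change with any library of the 8 left out.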

How the results depend on the processing

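No member that was called changed direction under any alternative run. With DESeq2, limma, RLE factors, raw library totals, no filter or the joint fit of the first table, the number of members called stayed within 1.5 times the reported one in all comparisons, with 1 exception: DESeq2 called 11 members rather than 7 for vitamin C added to TGFβ and retinoic acid. Against a required log2 fold change of 0.5, edgeR called 2 members for TGFβ against Th0 (15 in the main test), 0 for vitamin C (16) and 6 for retinoic acid (20). It called 1 for vitamin C added to retinoic acid (7), 3 for retinoic acid added to vitamin C (15) and 15 for both supplements (26). For naive against control Treg cells it called 8 (19) and between the Treg genotypes 3 (18). Except with both supplements, most calls in each of these comparisons rest on changes that are small or not shown to exceed 0.5. With single libraries left out, members called ranged from 27 to 30 for Th0 against naive cells, 6 to 21 for TGFβ against Th0, 6 to 12 for vitamin C, 11 to 18 for retinoic acid, 3 to 7 for vitamin C added to retinoic acid, 5 to 13 for retinoic acid added to vitamin C, 19 to 23 for both supplements, 16 to 20 for naive against control Treg cells, 27 to 31 against TGFβ iTreg cells, 14 to 18 for Tet2/3-deficient Treg cells and 31 to 32 after restimulation, and 0 for the interaction. In groups of 2 this leaves 1 library, which is assumed to vary like the other groups, and the cause of each lost call was not tested. Replicate numbers were not taken to pair the libraries, since the labels tie them to no shared animal or batch. Same-numbered libraries correlated by 0.221 to 0.415 among the 4 iTreg groups, a hint of pairing there, by 0.011 to 0.090 where naive or Th0 libraries were involved, and by 0.079, 0.096 and 0.196 in the restimulation table, where each library correlated best with its own number. A replicate block gave 31 members for Th0 against naive cells, 16 for TGFβ against Th0, 13 for vitamin C, 23 for retinoic acid, 10 for vitamin C added to retinoic acid, 15 for retinoic acid added to vitamin C, 23 for both, 0 for the interaction and 33 after restimulation. The calls it ended were those of Aldoa for TGFβ against Th0, Aldoa, Slc16a3 and Ak4 for vitamin C, Bnip3 and Ndrg1 for retinoic acid, Pfkp, Aldoa and Pgk1 for retinoic acid added to vitamin C and Pfkp, Bnip3 and Ero1l for both. Depth limits Vldlr, Ier3, Vegfa and Ak4, which had few reads in several groups.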
